A study of Mus musculus with 2 samples.

Results

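Late pachytene cluster 5 is the set of mouse male germ cells that the authors annotated as late pachytene (lP) and placed in their Seurat cluster 5. It was picked out by those 2 deposited columns alone and held 991 of 17253 annotated cells, 884 of 8833 in the library labelled Zfp541-/- and 107 of 8420 in the WT library. It made up 45.4% (43.2 to 47.7%) of the late pachytene cells of the library labelled Zfp541-/-, against 12.9% (10.7 to 15.4%) in the WT library. The remaining late pachytene cells were in clusters 0 and 22, which held 959 and 102 cells in the library labelled Zfp541-/-, and 486 and 234 in the WT library. Every interval here is a 95% interval that covers counting error only.

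The study profiled adult C57BL/6 testes by droplet single-cell RNA-seq, with 1 library from animals labelled Zfp541-/- and 1 from WT animals. Both suspensions were sorted for tetraploid germ cells and counted as unique molecular identifiers (UMIs) with a 10x kit for 3′ ends. The sample titles read whole testis. The WT library also held cells annotated as spermatids, with 333, 619, 393 and 111 cells in stages RS.1, RS.2, RS.3 and ES. The sources used here name neither the number of animals per library nor the deleted bases of Zfp541. With 1 library per genotype there was no replicate check, and neither a test nor a p-value was computed.

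Pachytene is the long stage of the first meiotic prophase in which paired chromosomes are held together by the synaptonemal complex and recombination intermediates mature into crossovers. In males the X and Y chromosomes are packed into the sex body and silenced, while autosomes turn on many genes for spermatids. ZFP541 is a zinc finger protein that works with KCTD19 and histone deacetylases HDAC1 and HDAC2 in spermatocytes.

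Cluster 5 was the earliest late pachytene cluster on the authors' pseudotime score, a scale without a unit that increases from spermatogonia to spermatids. Its median score was -14052.5 in the library labelled Zfp541-/- and -14614 in the WT library. Cluster 0 had a median of -12215 in the library labelled Zfp541-/- and -11569.5 in the WT library, and cluster 22 had -11793.5 and -11354. The median cell of cluster 5 held 24738 UMIs in the library labelled Zfp541-/- and 9406 in the WT library, a ratio of 2.63. The median number of genes was 4971 and 3175, and the mitochondrial share of UMIs had medians of 2.33% in the library labelled Zfp541-/- and 1.19% in the WT library. The summed cluster held 22082590 UMIs in the library labelled Zfp541-/- and 1008011 in the WT library, so that WT values below about 10 counts per 1000000 UMIs (CPM) rest on few molecules. Across the libraries 17 barcodes were annotated in both, and 4 cells of cluster 5 carried such a barcode.

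The label late pachytene is that of the authors, and the levels of 14 pachytene markers were set beside it. A comparison between libraries cannot tell late pachytene from other stages, so the label was not tested. Their summed level in cluster 5 was 12630 CPM in the library labelled Zfp541-/- and 13440 CPM in the WT library. Clusters 0 and 22 had 13232 CPM and 14211 CPM in the library labelled Zfp541-/-, and 13706 CPM and 14299 CPM in the WT library. In cluster 5 leptotene-zygotene markers summed to 1676 CPM in the library labelled Zfp541-/- and 1689 CPM in the WT library. Diplotene and division markers summed to 1415 CPM and 1330 CPM. Ldhc, the lactate dehydrogenase of germ cells, had 7969 CPM against 8117 CPM. Hspa2, a chaperone of spermatocytes, had 1853 CPM against 1745 CPM, and Piwil1, which binds pachytene piRNAs, had 857 CPM against 748 CPM. These 3 genes differed by less than 2-fold. Of the 14 markers 12 were measured, with a median log2 ratio of -0.38. Of these, 4 were at least 2-fold lower in the library labelled Zfp541-/- (Catsperb, Ccna1, Pgk2 and Pou5f2) and 0 higher. Over all measured genes 15.7% were lower and 16.1% higher. Round spermatid markers summed to 78.7 CPM in the library labelled Zfp541-/- and 122 CPM in the WT library. Elongating spermatid markers, which include protamines taken up below, summed to 547 CPM and 943 CPM. Markers of cells other than germ cells were near 0, save the peritubular myoid list. Sertoli, Leydig, endothelial, macrophage and red cell lists each summed to at most 2.45 CPM in either library. The peritubular myoid list summed to 18.5 CPM and 21.8 CPM, most of it from Mylk at 17.0 CPM and 18.8 CPM, while Acta2, its defining gene, had 0.0453 CPM in the library labelled Zfp541-/- and 1.98 CPM in the WT library. The 12 spermatogonia markers summed to 379 CPM in the library labelled Zfp541-/- and 405 CPM in the WT library, most of it from Dmrtb1.

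Zfp541 itself was not lower in the library labelled Zfp541-/-. Its level in cluster 5 was 76.8 CPM in that library, from 1697 UMIs, against 41.7 CPM in the WT library, from 42 UMIs. A 3′ count outside the deleted stretch cannot check a deletion, so the genotype label was not checked here, and each direction below holds for the libraries as labelled.

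The 6 genes given as markers of the cluster were Synm, Ina, Nefh, Phactr2, Iqgap2 and Itga6. They did not mark cluster 5 as such: they were high in all 3 late pachytene clusters of the library labelled Zfp541-/- and at or near 0 in all 3 of the WT library. The cells are therefore called by their cluster number. Of these, 3 encode intermediate filament proteins known mainly from nerve and muscle, and the sequence just before the start of the 2 highest of these, with that of Iqgap2, is shown because these genes were counted at over 100 CPM in one library and under 10 CPM in the other. Each is the 250 bases before the RefSeq start (GRCm38.p6), on the gene's strand, and capitals mark matches on either strand to the MYB core CAACNG or the CCAAT box. Of the 6 genes, 4 had an entry in the RefSeq table; that of Phactr2 lies inside the gene as GENCODE gives it and is not shown.
Ina, chr19:47014431-47014680, plus strand: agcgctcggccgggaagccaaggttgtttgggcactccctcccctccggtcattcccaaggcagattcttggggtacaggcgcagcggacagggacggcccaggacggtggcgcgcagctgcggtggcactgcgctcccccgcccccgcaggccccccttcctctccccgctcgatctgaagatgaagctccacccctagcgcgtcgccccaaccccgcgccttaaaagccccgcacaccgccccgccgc
Synm, chr7:67759743-67759992, minus strand: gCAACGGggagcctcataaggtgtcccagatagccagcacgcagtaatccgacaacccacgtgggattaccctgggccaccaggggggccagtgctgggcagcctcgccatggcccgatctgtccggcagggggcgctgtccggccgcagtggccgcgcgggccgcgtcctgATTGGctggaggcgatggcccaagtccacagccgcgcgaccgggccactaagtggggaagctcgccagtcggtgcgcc
Iqgap2, chr13:95891923-95892172, minus strand: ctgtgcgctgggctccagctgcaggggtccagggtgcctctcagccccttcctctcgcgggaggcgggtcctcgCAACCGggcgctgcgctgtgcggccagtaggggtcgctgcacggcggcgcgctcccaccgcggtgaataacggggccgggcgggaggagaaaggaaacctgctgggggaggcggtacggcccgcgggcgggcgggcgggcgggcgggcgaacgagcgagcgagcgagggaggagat
Synm had 1 match to each motif, the CCAAT box in reverse (ATTGG), Iqgap2 had 1 match to the MYB core and Ina had none of either. Among all 32851 such windows in the table, 29.3% held the MYB core and 33.8% the CCAAT box, so matches of this kind are common. The 3 windows were rich in G and C, at 70.8% for Ina, 70.0% for Synm and 75.2% for Iqgap2, against a median of 52.4% over all windows.

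Ina encodes alpha-internexin, a neuronal filament protein, and lies on chromosome 19 from 47014698 to 47025327 (GRCm38). It had 131 CPM (126 to 135) in cluster 5, 146 CPM in cluster 0 and 69.7 CPM in cluster 22 of the library labelled Zfp541-/-. In the WT library it had 0 UMIs in cluster 5, 0.207 CPM in cluster 0 and 0 UMIs in cluster 22. The level in cluster 5 was at least 43.9-fold higher in the library labelled Zfp541-/-, taking 3 UMIs as the limit that a count of 0 allows. Nefh, the heavy neurofilament chain, on chromosome 11 from 4938754 to 4948064, had 74.4 CPM, 62.6 CPM and 39.3 CPM in clusters 5, 0 and 22 of the library labelled Zfp541-/-. It had 0.992 CPM, 1.66 CPM and 0.466 CPM in the WT library. Synm encodes synemin, a large filament protein that joins desmin and vimentin networks, and lies on chromosome 7 from 67730160 to 67759742. It had 126 CPM, 104 CPM and 45.3 CPM in the library labelled Zfp541-/-, and 8.93 CPM, 3.73 CPM and 4.66 CPM in the WT library. Its log2 ratio between libraries in cluster 5 was 3.74 (2.89 to 4.95), the smallest of the 6, and that of Nefh was 5.64 (3.75 to 11.5).

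The other 3 genes act at the cell cortex. Phactr2, a regulator of protein phosphatase 1 and actin on chromosome 10, had 157 CPM, 116 CPM and 61.7 CPM in clusters 5, 0 and 22 of the library labelled Zfp541-/-, and 0.992 CPM, 1.87 CPM and 0.932 CPM in the WT library. Iqgap2, a scaffold for small GTPases and actin on chromosome 13, had 120 CPM, 89.3 CPM and 48.3 CPM, against 0 UMIs, 0.414 CPM and 0.466 CPM in the WT library. It was at least 40.4-fold higher in cluster 5 of the library labelled Zfp541-/-. Itga6, the integrin alpha 6 chain of laminin receptors on chromosome 2, had 59.5 CPM, 44.2 CPM and 24.9 CPM, against 1.98 CPM, 0.829 CPM and 0.932 CPM. The log2 ratio in cluster 5 was 6.72 (4.83 to 12.6) for Phactr2, which had 1 UMI in the WT cluster, and 4.58 (3.05 to 7.95) for Itga6, which had 2. For 5 of the 6 genes, all but Ina, cluster 5 had the highest level of the 3 clusters in the library labelled Zfp541-/-, and no ratio to cluster 0 reached 2-fold.

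**Figure D1:**
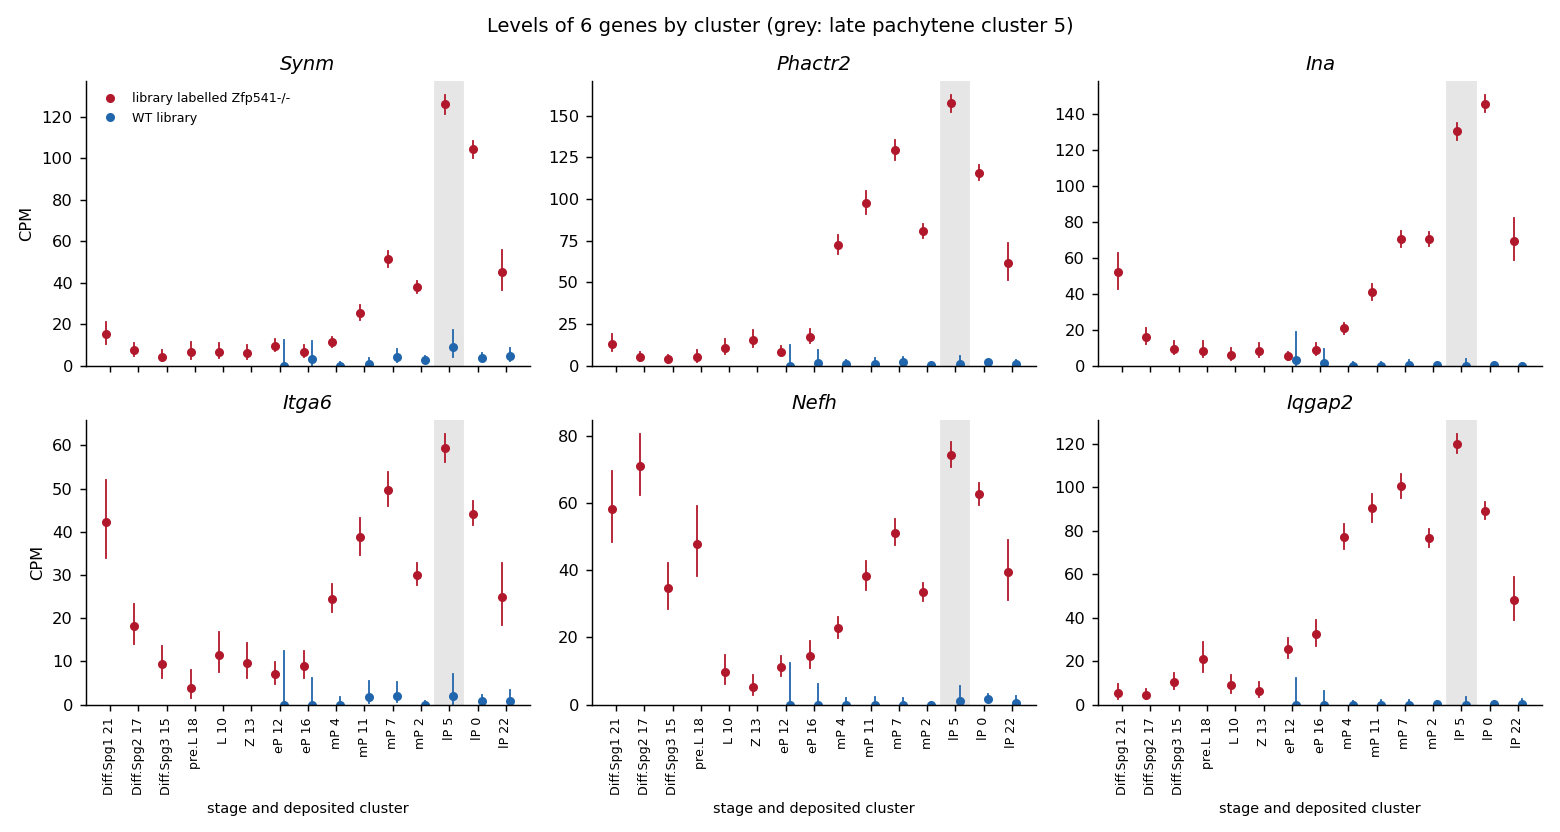
CPM of Synm, Phactr2, Ina, Itga6, Nefh and Iqgap2 (vertical axes) in each deposited cluster with at least 50 cells up to late pachytene, in the order of median pseudotime (horizontal axes), for the library labelled Zfp541-/- (red) and the WT library (blue). Bars are 95% Poisson intervals for counting error; in cluster 5 (grey) the red points lie between 59.5 and 157 CPM and the blue points between 0 and 8.93 CPM.

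In the library labelled Zfp541-/- the levels were already raised over the earlier spermatocytes in mid pachytene (mP). Phactr2 had 72.6 CPM, 97.6 CPM, 129 CPM and 80.8 CPM in mid pachytene clusters 4, 11, 7 and 2, in the order of pseudotime, and Synm had 11.2 CPM, 25.4 CPM, 51.3 CPM and 37.8 CPM. Ina, Nefh and Itga6 also had UMIs in the earliest spermatogonia of that library (cluster 21), at 52.2 CPM, 58.3 CPM and 42.3 CPM. The plot of marker levels by cluster shows these 3 genes low in between, from leptotene to early pachytene.

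At matched depth most cells of cluster 5 in the library labelled Zfp541-/- held UMIs of several of these genes. After each cell was thinned to 7000 UMIs, which left 878 of 884 cells in the library labelled Zfp541-/- and 102 of 107 in the WT library, Phactr2 was found in 67.4% of cells against 0.980%. Iqgap2 was found in 58.0% against 0 of 102 cells, Ina in 56.8% against 0 of 102, Synm in 56.7% against 6.86%, Nefh in 40.4% against 0.980% and Itga6 in 34.5% against 0.980%. A count of 0 of 102 cells, taken to allow 3 cells, limits the share of cells with a UMI at this depth to 2.94%, and not the share of cells that express the gene. Without thinning the shares were 74.5 to 95.9% in the library labelled Zfp541-/- and 0 to 8.41% in the WT library. For comparison, cells of spermatogonia cluster 21 in the library labelled Zfp541-/-, at a median of 9280.5 UMIs, held thinned shares of 9.47% for Synm, 9.47% for Phactr2, 2.96% for Iqgap2, 26.0% for Ina, 21.9% for Itga6 and 33.1% for Nefh. For the last 3, which those spermatogonia also carried at 42.3 CPM or more, this share is no level of background. Of the thinned cells, 69.1% had at least 3 of the 6 genes in the library labelled Zfp541-/-, against 0 of 102 in the WT library.

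Within cluster 5 the genes did not follow pseudotime alike. The cells of both libraries together were split along pseudotime into 4 bins of near equal cell number. From early to late these held 204, 222, 228 and 230 cells in the library labelled Zfp541-/- and 44, 25, 20 and 18 in the WT library. The bins were of unequal width, and the last, from -13383.5 to -11394, was the widest. In the library labelled Zfp541-/- Synm had 85.6 CPM, 97.8 CPM, 141 CPM and 167 CPM from the first to the last bin, and Ina had 96.3 CPM, 114 CPM, 136 CPM and 166 CPM. Nefh had 62.4 CPM, 65.4 CPM, 79.9 CPM and 86.3 CPM. Iqgap2 had 107 CPM (98.3 to 117), 119 CPM, 123 CPM and 128 CPM (120 to 138). Phactr2, at 148 CPM, 161 CPM, 160 CPM and 159 CPM, and Itga6, at 60.5 CPM, 54.2 CPM, 57.4 CPM and 64.9 CPM, had overlapping intervals in the first and last bins. In the WT library each of the 6 genes had 0 to 3 UMIs in every bin.

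**Figure D2:**
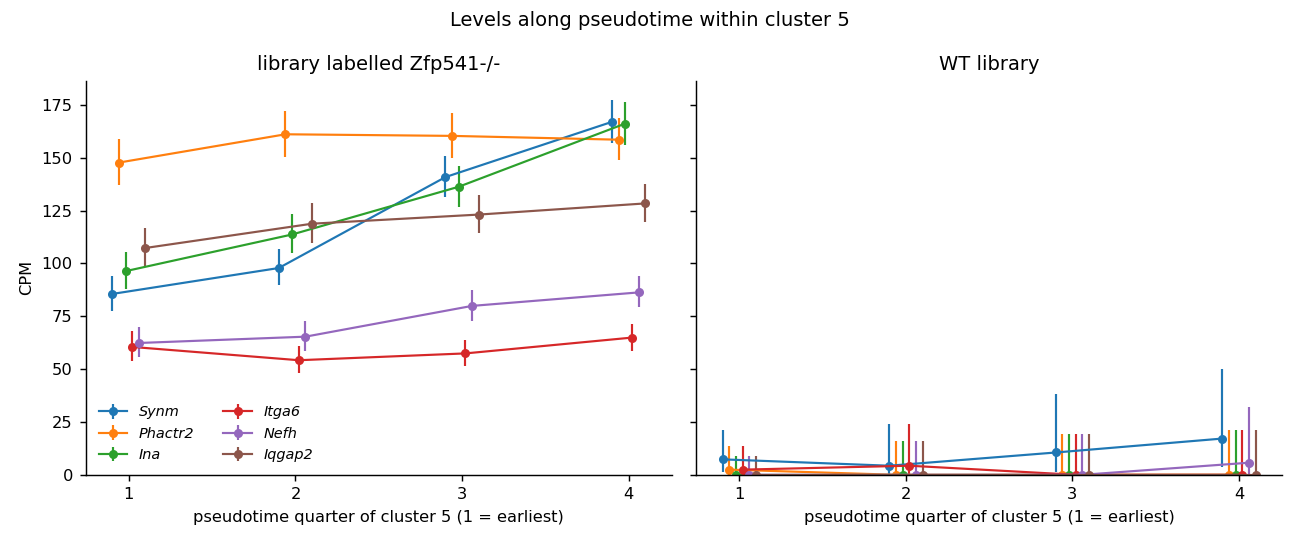
CPM of the 6 genes (vertical axis) in 4 bins of the pseudotime of cluster 5 (horizontal axis, 1 is the earliest), in the library labelled Zfp541-/- (left) and the WT library (right). Bars are 95% Poisson intervals; in the left panel Synm lies at 85.6 CPM in the first bin and 167 CPM in the last while Phactr2 stays between 148 and 161 CPM, and in the right panel every point rests on 3 UMIs or fewer.

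The comparison of cluster 5 with clusters 0 and 22 inside each library is a description, since the clusters were made from these same genes. In the library labelled Zfp541-/-, 15 of 7205 genes measured at 10 CPM or more in 1 of the 3 clusters were at least 2-fold higher in cluster 5 than in both others, which is 0.208%, and 10 were at least 2-fold lower, which is 0.139%. In the WT library 121 of 7198 genes were higher, 1.68%, and 43 were lower, 0.597%. The WT sums were smaller, and 18 of the 121 and 18 of the 43 had a counting interval that included 0 against at least 1 of the clusters, while all 25 genes of the library labelled Zfp541-/- had intervals clear of 0. Scaling by the median of ratios moved WT ratios by a median of -0.12 on the log2 scale and gave 58 higher and 69 lower genes there. Cluster 5 was far closer to cluster 0 than to cluster 22. Against cluster 0 alone, 15 of 7205 genes were at least 2-fold higher in the library labelled Zfp541-/- and 144 of 7198 in the WT library. Against cluster 22 alone, 20.1% of genes were higher in the library labelled Zfp541-/- and 23.0% in the WT library, while 1.24% and 2.04% were lower. Cluster 22 of the library labelled Zfp541-/- had a median of 4042.5 genes per cell. Its sum was 2009756 UMIs, against 22776105 for cluster 0.

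Among genes of at least 50 CPM, a nuclear RNA had the highest ratios of cluster 5 to both other clusters in the library labelled Zfp541-/-. Malat1, an abundant nuclear long noncoding RNA, had 845 CPM in cluster 5, 325 CPM in cluster 0 and 74.1 CPM in cluster 22 of the library labelled Zfp541-/-, and 1161 CPM, 653 CPM and 187 CPM in the WT library. Both libraries gave the same order of clusters. The log2 ratio to cluster 0 was 1.38 in the library labelled Zfp541-/- and 0.83 in the WT library, the second below 2-fold. Cluster 5 did not hold the highest level among pachytene clusters. Mid pachytene clusters 4, 11, 7 and 2 of the library labelled Zfp541-/- had 1077 CPM, 879 CPM, 879 CPM and 272 CPM of Malat1. Gm3448, on chromosome 17 from 14995787 to 15041537, had 334 CPM, 154 CPM and 33.3 CPM in the library labelled Zfp541-/-, and 245 CPM, 141 CPM and 30.8 CPM in the WT library. Kcnq1ot1, the long noncoding RNA of an imprinted domain, had 33.6 CPM, 15.8 CPM and 5.97 CPM in the library labelled Zfp541-/-, and 51.6 CPM, 26.7 CPM and 8.39 CPM in the WT library. Hist1h1t, the testis linker histone, had 34.0 CPM, 14.4 CPM and 6.47 CPM in the library labelled Zfp541-/- and stood at 226 CPM, 114 CPM and 27.0 CPM in the WT library. Mid pachytene clusters 4, 11, 7 and 2 of the library labelled Zfp541-/- had 52.5 CPM, 38.4 CPM, 42.6 CPM and 15.2 CPM of Hist1h1t. Gm10619, an uncharacterised transcript, had 84.8 CPM, 37.1 CPM and 15.9 CPM in the library labelled Zfp541-/- and 126 CPM, 72.1 CPM and 27.0 CPM in the WT library. Kcnq1ot1 and Hist1h1t lay below 50 CPM in the library labelled Zfp541-/- and were picked out after their values were seen.

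Among genes of at least 50 CPM the next in rank were just under 2-fold. Myh10, a nonmuscle myosin heavy chain, had 71.5 CPM, 36.9 CPM and 22.4 CPM in clusters 5, 0 and 22 of the library labelled Zfp541-/-, and 52.6 CPM, 34.6 CPM and 12.6 CPM in the WT library. Hnrnpa3, an RNA-binding protein, had 242 CPM, 126 CPM and 63.2 CPM, and 338 CPM, 175 CPM and 69.9 CPM in the WT library. The genes mt-Nd4l, Hydin, Ddx17 and Dopey1 also had their highest level in cluster 5 of both libraries. Dip2c differed from these, with 98.8 CPM, 51.9 CPM and 21.4 CPM in the library labelled Zfp541-/- and 1 UMI in all 3 WT clusters together. In the WT library the 8 leading genes were Snx19, Ppfia1, Ddx23, Khsrp, D1Pas1, Cul2, Wdr19 and Hirip3. Hirip3, a partner of the histone chaperone HIRA, was the most abundant of them at 153 CPM, 76.7 CPM and 42.9 CPM in the WT library, and had 152 CPM, 93.7 CPM and 36.8 CPM in the library labelled Zfp541-/-.

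**Figure D3:**
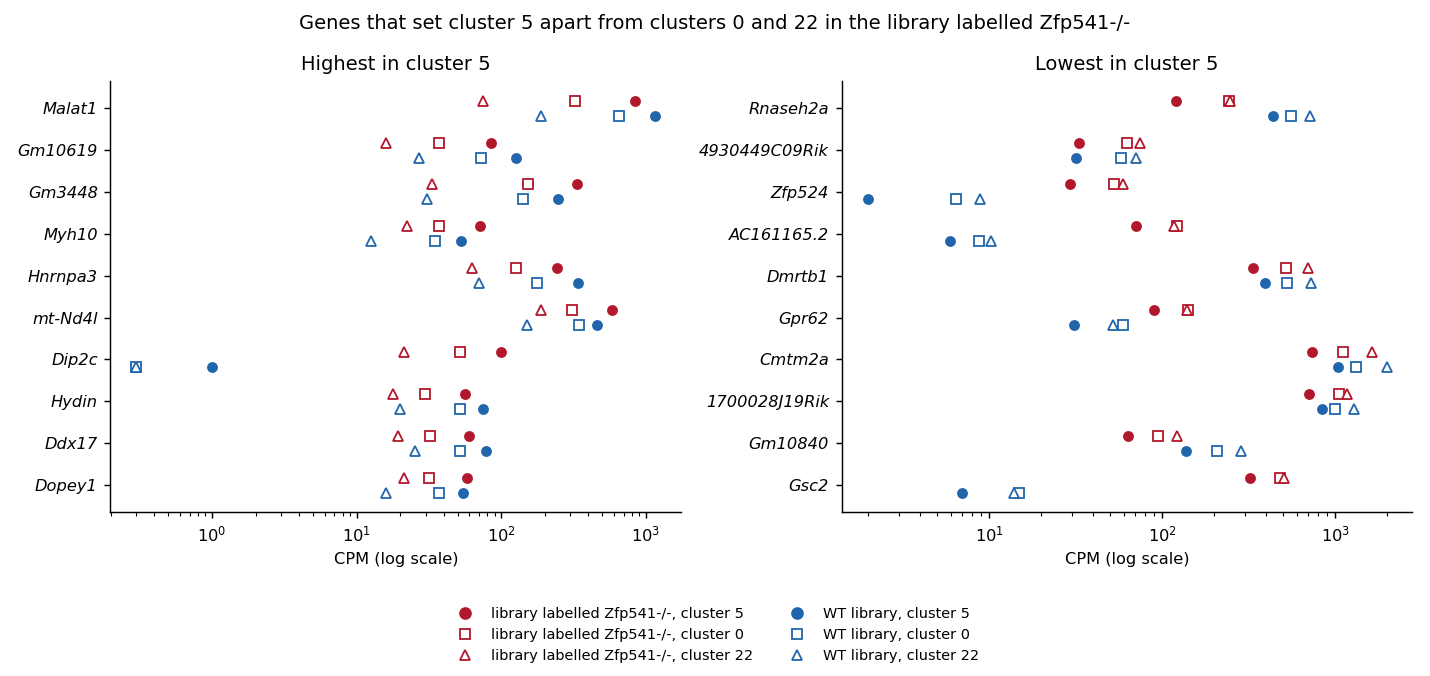
CPM (horizontal axes, log scale) of the 10 genes highest (left) and the 10 lowest (right) in cluster 5 of the library labelled Zfp541-/-, among genes of at least 50 CPM. Filled circles are cluster 5, open squares cluster 0 and open triangles cluster 22, in red for the library labelled Zfp541-/- and blue for the WT library; values of 0 (Dip2c in 2 WT clusters) are drawn at the left end, and the filled circles lie at the right of the left panel's genes (Malat1 845 against 325 and 74.1 CPM) and at the left of the right panel's genes (Rnaseh2a 121 against 242 and 246 CPM).

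Of the 10 genes at least 2-fold lower in cluster 5 of the library labelled Zfp541-/-, Rnaseh2a alone reached 50 CPM. Dmrtb1, Cmtm2a and Gsc2, named here by rank, did not reach 2-fold against cluster 0 in that library. Of the 10 genes, 4 lie on the X or Y chromosome (Prdx4, Rpl39, Usp26 and Gm47283), against 9 of the 7205 measured. Rnaseh2a, the catalytic subunit of ribonuclease H2, had 121 CPM in cluster 5, 242 CPM in cluster 0 and 246 CPM in cluster 22 of the library labelled Zfp541-/-, and 436 CPM, 553 CPM and 718 CPM in the WT library. Dmrtb1, a DM domain transcription factor of germ cells, had 333 CPM, 522 CPM and 694 CPM in the library labelled Zfp541-/- and 395 CPM, 529 CPM and 722 CPM in the WT library. Cmtm2a had 731 CPM, 1108 CPM and 1642 CPM, and 1035 CPM, 1315 CPM and 1980 CPM in the WT library. Gsc2, a goosecoid-like homeobox gene, was lowest in cluster 5 of both libraries at unlike levels, with 321 CPM, 479 CPM and 505 CPM in the library labelled Zfp541-/- and 6.94 CPM, 14.9 CPM and 14.0 CPM in the WT library. In the WT library 4930449C09Rik and Gpr62 were among the 8 lowest as well as among the 10 lowest of the library labelled Zfp541-/-. 4930449C09Rik had 33.0 CPM, 62.7 CPM and 74.1 CPM in the library labelled Zfp541-/-, and 31.7 CPM, 57.8 CPM and 70.4 CPM in the WT library.

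The 2-fold calls shared by the libraries were 2 higher genes and 1 lower gene. Among 6286 genes measured in both, 11 were higher in the library labelled Zfp541-/-, 80 in the WT library and 2 in both, which is 18.2% of the 11 and 2.5% of the 80. Over all 6286 genes, 0.175% were higher in the library labelled Zfp541-/- and 1.27% in the WT library. For lower calls, 1 gene was shared, of 3 in the library labelled Zfp541-/- and 21 in the WT library, which is 33.3% and 4.76%. Over all 6286 genes, 0.0477% were lower in the library labelled Zfp541-/- and 0.334% in the WT library. No gene was called in opposite directions. The 11 higher and 3 lower genes of the library labelled Zfp541-/- had the same direction in the WT library against both clusters, often below 2-fold. Hist1h1t, with a log2 ratio to cluster 0 of 1.24 in the library labelled Zfp541-/- and 0.99 in the WT library, thus counted as not shared.

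Between libraries the same cluster differed widely. Of 7803 genes measured at 10 CPM or more in 1 library, 1260 were at least 2-fold higher in the library labelled Zfp541-/-, which is 16.1%, and 1224 were at least 2-fold lower, which is 15.7%. The median log2 ratio over all measured genes was 0.00, and the middle 90% of genes ran from -2.50 to 3.11. With median-of-ratios scaling each ratio would be larger by 0.17. Most of these differences were shared with the rest of late pachytene: of the 1260 higher genes, 1062 were also at least 2-fold higher in cluster 0 and 1046 in cluster 22, and of the 1224 lower genes, 1023 and 959 were at least 2-fold lower there.

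The 10 genes with the highest ratios had 0 UMIs in cluster 5 of the WT library. Bend6, a BEN domain gene on chromosome 1, had 185 CPM in the library labelled Zfp541-/- and was at least 62.3-fold higher. Tpm1, an actin-binding tropomyosin, had 159 CPM and was at least 53.5-fold higher. The uncharacterised transcript 3010003L21Rik had 139 CPM and was at least 46.7-fold higher. Fads1, the delta-5 desaturase of polyunsaturated fatty acid synthesis, had 105 CPM and was at least 35.1-fold higher. Sipa1l1, Rundc3b, Snx20 and Nt5dc2 had between 80.0 CPM and 122 CPM, and Ina and Iqgap2 completed the list. In clusters 0 and 22 of the WT library these 10 genes had at most 2.80 CPM.

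Genes that were rare in the library labelled Zfp541-/- included Prps1l1, Timm8a2 and Igbp1b, autosomal relatives of X-linked genes. Prps1l1, a testis form of phosphoribosyl pyrophosphate synthetase on chromosome 12, had 3.71 CPM in cluster 5 of the library labelled Zfp541-/- against 621 CPM in the WT library, a log2 ratio of -7.38 (-7.74 to -7.05). Timm8a2, the autosomal relative of the mitochondrial import gene Timm8a1, had 0.317 CPM against 66.5 CPM. Slco6c1, a testis anion transporter on chromosome 1, had 2.08 CPM against 335 CPM. The transcript 1700003I22Rik had 0.317 CPM against 150 CPM, Wdr20rt had 0.226 CPM against 77.4 CPM, Igbp1b had 0.408 CPM against 64.5 CPM and Pudp had 0.272 CPM against 63.5 CPM. All 7 were as rare in clusters 0 and 22 of the library labelled Zfp541-/-, at 0 to 5.22 CPM.

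The 3 lowest ratios were those of the protamines Prm1 and Prm2 and the transition protein Tnp2, which replace histones in spermatids. They had 0 UMIs in cluster 5 of the library labelled Zfp541-/- and 101 CPM, 95.2 CPM and 51.6 CPM in the WT library. WT spermatogonia of cluster 17, which should lack these RNAs, held 234 CPM of Prm1, 201 CPM of Prm2 and 55.7 CPM of Tnp2, from 21, 18 and 5 UMIs. The WT cells annotated ES, the last stage, held 148398 CPM, 86886 CPM and 57577 CPM. The WT level in cluster 5 was below that of these spermatogonia for Prm1 and Prm2. For Tnp2 the interval in spermatogonia, 18.1 to 130 CPM, included it. The 28 spermatogonia had a median of 2497.5 UMIs, against 9406 in the 107 WT cells of cluster 5. Levels in CPM therefore do not compare free RNA per cell. Prm1 had 21 UMIs in the spermatogonia and 102 in cluster 5. Whether the WT counts in cluster 5 are background was not tested, and they are not read as expression. The library labelled Zfp541-/- held 0 cells annotated as spermatids.

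Intermediate filament genes had the highest median of the gene lists. Of 20 listed genes 8 were measured in cluster 5, 5 were at least 2-fold higher in the library labelled Zfp541-/- and 0 lower, and the median log2 ratio was 4.26, against 0.00 over all measured genes, of which 16.1% were higher and 15.7% lower. The filter of 10 CPM admits a gene through whichever library is higher, and with no filter the median of the list was -0.15. Beside Ina, Nefh and Synm these were Prph, the peripheral nerve filament peripherin, at 13.6 CPM against 0 UMIs, and Bfsp1, a lens filament gene, at 23.1 CPM against 0 UMIs. The keratin Krt10, at 62.4 CPM against 53.6 CPM, and the lamin Lmna, at 51.3 CPM against 56.5 CPM, did not reach 2-fold, and neither did Lmnb1, at 51.8 CPM against 26.8 CPM. Nefm, the medium neurofilament chain, was not measured at 10 CPM in either library. Of 21 measured actin and scaffold regulators, a list that holds the given markers Phactr2 and Iqgap2, 5 were higher and 2 lower. Rac1, a small GTPase, had 109 CPM against 21.8 CPM, and Tpm3 had 40.7 CPM against 12.9 CPM, while Actg1, the cytoplasmic gamma actin, had 1024 CPM against 1617 CPM, a ratio below 2-fold. Of 6 measured integrin and adhesion genes 2 were higher, the given marker Itga6 and the focal adhesion kinase Ptk2 (52.5 CPM against 19.8 CPM). Cdh2, which encodes N-cadherin, was the 1 lower gene (8.88 CPM against 32.7 CPM).

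Among genes of meiotic recombination and the chromosome axis, more passed 2-fold upward than downward, while over all measured genes 16.1% were higher and 15.7% lower. Of 25 measured recombination genes, 10 were at least 2-fold higher in the library labelled Zfp541-/- and 1 lower, with a median log2 ratio of 0.37. Zcwpw1, a reader of the histone marks that PRDM9 leaves at hotspots, had 269 CPM against 28.8 CPM. Hfm1, a helicase for crossover formation, had 217 CPM against 60.5 CPM, and Tex15 had 52.5 CPM against 0.992 CPM. Rnf212, which selects sites for crossovers, had 69.6 CPM against 27.8 CPM. Of 15 measured synaptonemal complex and cohesin genes, 5 were higher and 1 lower. Smc1b, the meiotic cohesin subunit, had 1501 CPM against 318 CPM, a log2 ratio of 2.24 (2.08 to 2.40), and the central element gene Syce3 had 902 CPM against 288 CPM. Another central element gene, Syce2, went the other way with 14.0 CPM against 90.3 CPM. Sycp1 had 288 CPM against 302 CPM and Sycp3 had 835 CPM against 538 CPM, both below 2-fold.

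**Figure D4:**
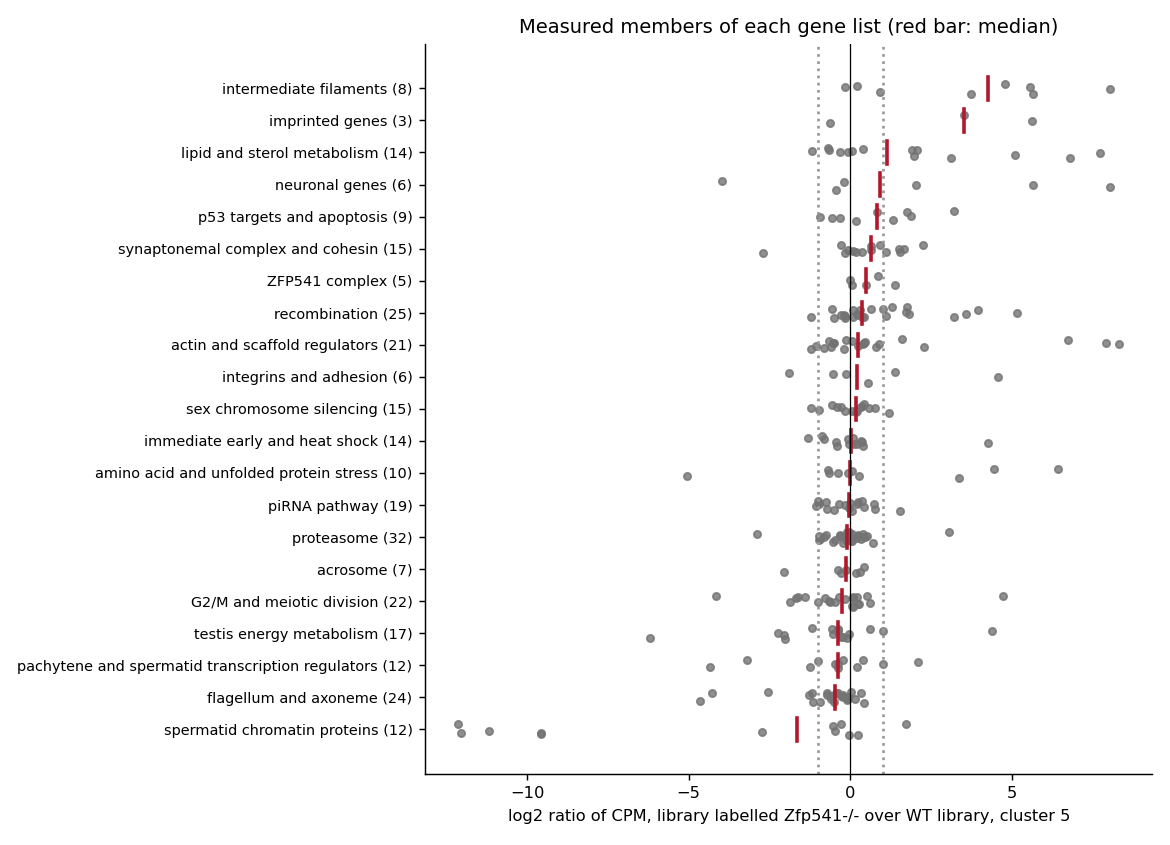
Log2 ratio of CPM between the library labelled Zfp541-/- and the WT library in cluster 5 (horizontal axis) for each measured member (grey points) of each gene list (rows, number measured in brackets), with the list's median as a red bar. Dotted lines mark 2-fold. The medians run from 4.26 for intermediate filaments to -1.64 for spermatid chromatin proteins. The first list holds the given markers Ina, Nefh and Synm, and its median is -0.15 with no CPM filter. The second holds Prm1, Prm2, Tnp1 and Tnp2, whose WT counts are not read as expression. Ratios of genes with 0 UMIs in 1 library depend on the 0.5 counts added.

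Of the genes for the flagellum and for meiotic division, more passed 2-fold downward than upward, while over all measured genes 16.1% were higher and 15.7% lower. Of 24 measured flagellum and axoneme genes, 0 were at least 2-fold higher in the library labelled Zfp541-/- and 6 were lower, with a median log2 ratio of -0.47. The tektins, filament proteins of the sperm axoneme, made up 4 of the 6. Tekt1 had 141 CPM against 343 CPM, Tekt2 had 18.2 CPM against 105 CPM, Tekt3 had 2.31 CPM against 58.5 CPM and Tekt5 had 0.815 CPM against 15.9 CPM. The most abundant member, Meig1, which is needed for spermatid development, had 5040 CPM against 7700 CPM, below 2-fold. Of 22 measured genes of G2/M and meiotic division, 1 was higher and 5 were lower. Pttg1, the securin that holds back separase, had 99.3 CPM against 304 CPM, and Birc5, which encodes survivin, had 81.3 CPM against 216 CPM. Cdk1, the kinase of division entry, had 11 CPM against 39.7 CPM, and Aurkc, the meiotic Aurora kinase, had 1.72 CPM against 30.8 CPM. Ccna2 was the higher one, with 13 CPM against 0 UMIs.

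The counts of the next lists stand beside those over all measured genes, of which 16.1% were higher and 15.7% lower. Of 17 measured genes of testis energy metabolism, 2 were higher and 5 lower. Pgam2, a phosphoglycerate mutase, had 269 CPM against 1081 CPM, Cox6b2, a testis subunit of cytochrome oxidase, had 716 CPM against 1618 CPM and Hk1, a hexokinase, had 0.453 CPM against 34.7 CPM. Of 14 measured lipid and sterol genes, 7 were higher and 1 was lower, with a median log2 ratio of 1.14. Beside Fads1 these included Acot13, an acyl-CoA thioesterase, at 278 CPM against 1.98 CPM, and Fasn, the fatty acid synthase, at 37.3 CPM against 8.93 CPM. Among the 6 lipid genes of at least 50 CPM the median was -0.02, so the list's direction rests on its less abundant members. Of 9 measured p53 targets and apoptosis genes, 4 were higher (Bax, Apaf1, Trp53inp1 and Gadd45b) and 0 lower. Bax, an effector of mitochondrial apoptosis, had 28.6 CPM against 10.9 CPM. Of 5 measured genes of the ZFP541 complex, 1 was higher, Hdac1, at 246 CPM against 93.3 CPM, and Kctd19 had 246 CPM against 177 CPM. The proteasome list had 1 of 32 genes higher (Psma7, 295 CPM against 34.7 CPM) and 1 lower (Psmb5, 59.3 CPM against 442 CPM), and the piRNA pathway 1 of 19 each way.

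Few genes differed between the libraries in cluster 5 otherwise than in clusters 0 and 22. The log2 ratio between libraries was at least 1 larger in cluster 5 than in both other clusters for 81 of 8117 genes, 0.998%, and at least 1 smaller for 146, 1.8%. Only 13 of the 81 and 25 of the 146 had counting intervals of both differences clear of 0. All 12 genes named by rank had between 0 and 9 UMIs in the WT cluster 5, save Scarf2 with 39. Rundc3b ranked first, with 114 CPM, 74.7 CPM and 43.8 CPM in clusters 5, 0 and 22 of the library labelled Zfp541-/- and 0 UMIs, 2.07 CPM and 2.80 CPM in the WT library. The 3 UMIs that a count of 0 allows in WT cluster 5 are 2.98 CPM, so its rank rests on the 0.5 counts added. Abi2, a regulator of actin branching, had 54.8 CPM, 39.7 CPM and 25.9 CPM in the library labelled Zfp541-/- against 4.96 CPM, 10.2 CPM and 7.46 CPM in the WT library. Ftl1, the ferritin light chain, had a difference of -2.04 and -1.62, with 64.8 CPM, 84.8 CPM and 103 CPM in the library labelled Zfp541-/- against 8.93 CPM, 2.90 CPM and 4.66 CPM in the WT library. Ppp1r14a had 30.7 CPM, 47.9 CPM and 65.2 CPM, against 5.95 CPM, 2.69 CPM and 4.19 CPM. At this depth of the WT cluster such differences were not measured closely.

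X-linked RNA was scarce in cluster 5 of both libraries and a higher share of UMIs in the library labelled Zfp541-/-. X-linked genes gave 0.0269% (0.0263 to 0.0276%) of UMIs in cluster 5 of the library labelled Zfp541-/-, or 5949 UMIs, against 0.0123% (0.0102 to 0.0147%), or 124 UMIs, in the WT library. The share in the library labelled Zfp541-/- was 2.19 times that in the WT library (1.83 to 2.64). Before silencing, leptotene cells of the library labelled Zfp541-/- had a share of 2.65%. In cluster 0 the shares were 0.0445% and 0.0131%, a ratio of 3.41, and in cluster 22 they were 0.0584% and 0.0136%, a ratio of 4.31. Cluster 5 thus had the lowest X share of the 3 clusters in the library labelled Zfp541-/-, at 0.605 times that of cluster 0 (0.586 to 0.625) and 0.461 times that of cluster 22 (0.433 to 0.491). In the WT library its ratio to cluster 0 was 0.942 (0.771 to 1.14) and to cluster 22 it was 0.907 (0.729 to 1.12), both with intervals that include 1.

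Per cell, cluster 5 held 6.73 X-linked UMIs in the library labelled Zfp541-/-, against 1.16 in the WT library. Clusters 0 and 22 held 10.6 and 11.5 in the library labelled Zfp541-/-, against 1.30 and 1.24 in the WT library. In mid pachytene clusters 7 and 2 of the library labelled Zfp541-/-, which precede cluster 5, the shares were 0.0185% and 0.0493%, so the X share did not move steadily along pseudotime. A part played by free RNA from earlier cells, which had X shares of 0.964 to 2.65% from spermatogonia to zygotene and were more numerous in that library, was not tested. Nor was a part played by free RNA from spermatids in the WT library, which had X shares of 0.288 to 1.30%.

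The 2 most counted X-linked genes differed from the rest taken as a sum. Tsga8, a haploid germ cell gene on the X from 83486678 to 83487924, had 23.8 CPM in cluster 5 of each library. This came from 526 UMIs in the library labelled Zfp541-/- and 24 in the WT library. Only the WT library held cells annotated as spermatids, and whether free RNA added to its Tsga8 counts was not tested. Ndufa1, a subunit of respiratory complex I, had 12.1 CPM in the library labelled Zfp541-/- against 25.8 CPM in the WT library. Together they gave 13.3% of X-linked UMIs in cluster 5 of the library labelled Zfp541-/- and 40.3% in the WT library. Without them the ratio of X shares was 3.18 (2.53 to 4.06). Ubl4a, a ubiquitin-like chaperone of tail-anchored proteins, had 198 UMIs in the library labelled Zfp541-/- (8.97 CPM) against 1 in the WT library (0.992 CPM). Fmr1, which encodes the RNA-binding protein FMRP, had 111 UMIs (5.03 CPM) against 0, at least 1.69-fold higher. Single genes of the rest had few WT UMIs, and intervals of several included no difference. Spin2d had 4.12 CPM against 2.98 CPM, from 3 WT UMIs, with a log2 ratio of 0.26 (-1.12 to 2.77). Prdx4 had 3.58 CPM against 0.992 CPM, from 1 WT UMI, with a log2 ratio of 1.27 (-0.67 to 7.17). Y-linked genes gave 0.00212% of UMIs in cluster 5 of the library labelled Zfp541-/- against 0.000595% in the WT library, where it rested on 6 UMIs.

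**Figure D5:**
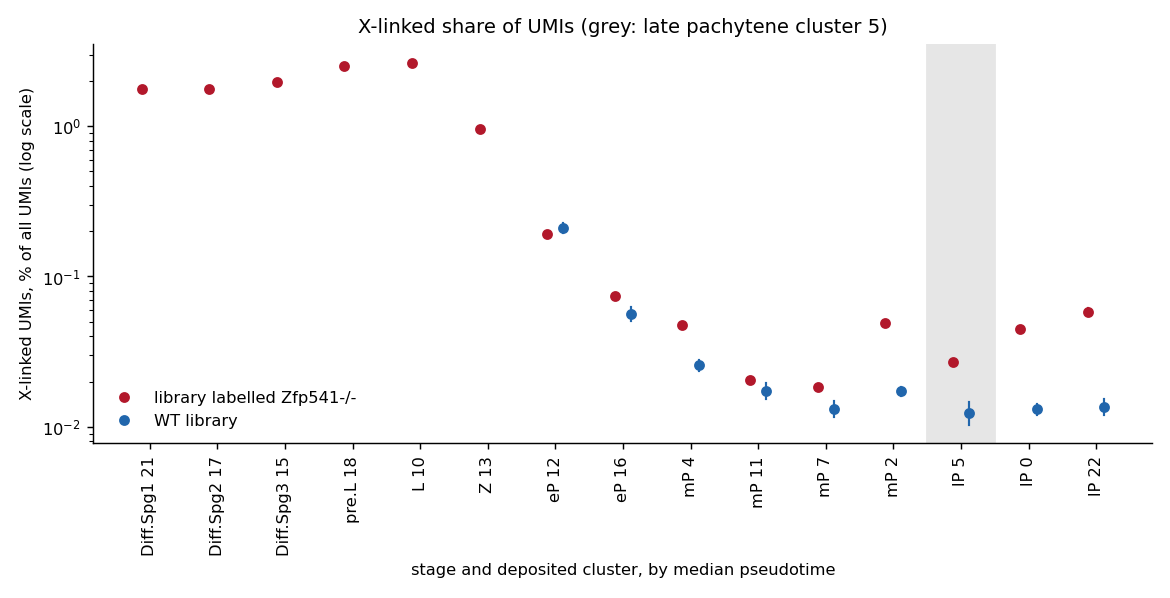
X-linked share of UMIs in percent (vertical axis, log scale) in each deposited cluster with at least 50 cells in that library, up to late pachytene and in the order of median pseudotime (horizontal axis), for the library labelled Zfp541-/- (red) and the WT library (blue), with 95% exact binomial intervals. The share is above 0.9% up to zygotene in the library labelled Zfp541-/- and falls below 0.1% in pachytene; in cluster 5 (grey) it is 0.0269% in red and 0.0123% in blue.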

How the data were processed

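Single cells of sorted tetraploid germ cells were profiled in 1 library labelled Zfp541-/- and 1 WT library. Cell Ranger 3.1.0 with mm10 and Seurat 3.2.0 are named, without their roles, per the submitters' processing notes. The deposited matrices hold whole-number UMI counts of 31053 genes, not normalised. The deposited cell table gives, per the file headers, stage, cluster, the percent of mitochondrial UMIs and a pseudotime score, whose computation the sources used here do not describe. In these values no annotated cell fell below 1000 genes or above 10% of mitochondrial UMIs. No doublet caller was run here and the sources used here do not say whether the authors removed doublets. The deposited merged matrix was left out, since it repeats these cells.

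UMIs were summed per library and cluster and scaled to counts per 1000000 (CPM). Log2 ratios were taken after adding 0.5 counts to each sum, among genes of at least 10 CPM, and a gene was counted as higher or lower at 2-fold or more. Intervals are 95%: exact Poisson for levels, exact conditional binomial for ratios, exact Clopper-Pearson for shares and normal for differences of ratios. They cover counting error only. A count of 0 was taken to allow 3 UMIs per library. To compare shares of cells, each cell was thinned to 7000 UMIs. Chromosomes came from GENCODE M21 (GRCm38), which matched 30934 of 31053 gene IDs. The functions were tested on simulated counts. Python 3.11.15, numpy 2.4.6, scipy 1.17.1 and pandas 2.3.3 were used.

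The members and the gene lists were chosen with earlier results of these data known. Named genes were the 6 given markers; the 10 highest and 10 lowest in cluster 5 of the library labelled Zfp541-/- and 8 each of the WT library, by the smaller ratio to clusters 0 and 22, at 50 CPM or more; the 10 highest and 10 lowest between libraries; 6 each for the difference of ratios; and, per list, the 3 most abundant members and both extremes. Other list members and X-linked genes were named after their values were seen. Alternatives were median-of-ratios scaling, a 50 CPM filter, no filter, 5 added counts, thinned cells, the mean of per-cell CPM, cells of at most 5% mitochondrial UMIs, without the deepest 10% of cells, a shared pseudotime range and, chosen after seeing the data, no barcodes shared by the libraries.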

Additional observations from a re-analysis of the deposited data

How the results depend on the processing

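The counts of genes past 2-fold moved most with the filter. At 50 CPM the library labelled Zfp541-/- had 3 genes higher and 1 lower in cluster 5, the WT library 7 higher and 1 lower, and between libraries 488 were higher and 445 lower; the difference of ratios was larger for 8 and smaller for 17. With no filter the counts were 102 and 2039, 1631 and 414, 2211 and 6687, and 324 and 4560 in the same order, where genes below 10 CPM also enter. With 5 added counts the WT library had 221 higher and 4 lower genes in cluster 5, and the difference of ratios was larger for 1 and smaller for 317 genes, P3h4 turning to -0.71; added counts weigh most on the smallest sums, those of WT cluster 5. Median-of-ratios scaling gave 58 higher and 69 lower genes in the WT library. Thinned cells gave 35 genes higher in cluster 5 of the library labelled Zfp541-/-, and 126 larger and 220 smaller differences of ratios. The shared pseudotime range gave 145 larger differences of ratios. The cause of these last shifts was not tested.

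List medians turned round under the filters: lipid and sterol genes had -0.024 at 50 CPM and -0.058 with no filter, where intermediate filaments had -0.15 and imprinted genes -1.41, with members of few UMIs added by dropping the filter. The other counts stayed within 1.5 times, and the ratio of X shares ran from 2.04 to 2.19 over the cell filters tried. Of 1524 recomputed values of named genes, 1465 stayed within their counting interval, 58 left it and 1 turned round. The 107 WT cells limit every comparison with them. No paired analysis was possible because each genotype had 1 library.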

Other observations

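Further lists differed between the libraries in cluster 5. Over all measured genes 16.1% were higher in the library labelled Zfp541-/- and 15.7% lower. Of 3 measured imprinted genes, 2 were higher: Meg3, a maternally expressed long noncoding RNA, at 73.9 CPM against 0.992 CPM in the WT library, and Grb10, an adaptor of growth factor receptors, at 84.9 CPM against 6.94 CPM. With no filter 16 imprinted genes entered and their median log2 ratio was -1.41. Of 10 measured genes of amino acid and unfolded protein stress, 3 were higher, Asns (asparagine synthetase, 10.7 CPM against 0 UMIs), Vldlr (42.9 CPM against 0 UMIs) and Cebpb (15.3 CPM against 0.992 CPM), and 1 was lower, the transcription factor Xbp1 (0.317 CPM against 10.9 CPM). Cebpb, unlike Asns and Vldlr, was over 2-fold higher in clusters 0 and 22 of the library labelled Zfp541-/- than in cluster 5, at 36.3 CPM and 35.8 CPM.

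Of 12 measured transcription regulators of pachytene and spermatids, 2 were higher and 3 lower. Pou5f2 had 3.80 CPM in cluster 5 of the library labelled Zfp541-/- against 76.4 CPM in the WT library, Pou2f2 had 14.6 CPM against 133 CPM and Tcfl5, a factor needed in spermatocytes, had 253 CPM against 594 CPM. Nfyb, a subunit of the CCAAT-binding factor NF-Y, had 40.1 CPM against 8.93 CPM, and Rfx2, a regulator of cilia genes, had 107 CPM against 52.6 CPM. The 11 cells of the library labelled Zfp541-/- that were annotated as diplotene in cluster 1 still carried the genes given as markers, with 183 CPM of Synm, 165 CPM of Phactr2 and 159 CPM of Ina.

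The remaining lists gave few or mixed calls in cluster 5. Of 15 measured genes of sex chromosome silencing, 1 was higher in the library labelled Zfp541-/- (Atrip) and 1 lower (Hormad2), with a median log2 ratio of 0.18. Of 14 measured immediate early and heat shock genes, 1 was higher (Hspd1, a mitochondrial chaperonin, at 66.5 CPM against 2.98 CPM) and 1 lower (Jun, at 4.53 CPM against 10.9 CPM). Of 7 measured acrosome genes, 0 were higher and 1 was lower, Acrbp, which binds proacrosin, at 100 CPM against 412 CPM. Of 6 measured neuronal genes, 3 were higher (the given markers Ina and Nefh, and Ncam1) and 1 lower (Chgb). Of 12 measured spermatid chromatin genes, 1 was higher, H2afy, which encodes macroH2A1, at 1283 CPM against 389 CPM, and 6 were lower, Hist1h1t, Prm1, Prm2, Prm3, Tnp1 and Tnp2. The WT counts of Prm1, Prm2 and Tnp2 are not read as expression, and whether they are background was not tested. The same holds for Tnp1, with 16.9 CPM in WT cluster 5 against 100 CPM in WT spermatogonia of cluster 17, from 9 UMIs. Prm3 was not examined in this way.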
